A study of Mus musculus with 3 samples.

Results

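Goblet cells of the mouse small intestine were compared with the enterocytes that surround them, using single-cell RNA libraries of 3 segments, with 1 library for each of duodenum, jejunum and ileum. A barcode counted as a goblet cell where it held 800 to 50000 UMIs (unique transcript tags), at most 40% mitochondrial UMIs, no UMI of the leukocyte gene Ptprc, UMIs of at least 2 of the mucus genes Muc2, Fcgbp and Clca1, and at least 10 UMIs of these 3 genes per 10000 UMIs. The gate took 1049 of the 16774 barcodes within the limits on UMIs and mitochondrial share, out of 27235 deposited. An enterocyte was a barcode within the same limits with no UMI of the 3 mucus genes and with at least 2% of its UMIs from Apoa1, Apoa4, Fabp1, Rbp2, Alpi and Sis. This gave 4060 enterocytes.

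The mice were wildtype C57BL/6N males of 12 weeks with no treatment. Tissue of 3 animals was pooled in each library, so no single mouse can be followed and each segment has 1 library. Epithelium was shaken off in EDTA and DTT, and live cells were sorted as negative for propidium iodide, with no selection for a cell type. The 3 libraries come from segments of the same pooled animals, and the p-values given here measure only the spread between these 3 libraries.

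Goblet cells and enterocytes descend from the same crypt stem cells. Notch signals push a daughter cell towards absorption, while a cell that escapes them and keeps Atoh1 enters the secretory branch that also gives rise to Paneth, enteroendocrine and tuft cells. A goblet cell makes the gel-forming mucin Muc2 in the endoplasmic reticulum (ER), loads it with sugars in the Golgi, packs it into granules and releases it, with proteins that bind or cut it, as the mucus that covers the villi.

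The 3 gate genes were counted at 151, 221 and 230 UMIs per 10000 UMIs of the summed goblet cells for Muc2, at 555, 644 and 470 for Fcgbp and at 183, 105 and 175 for Clca1, in the order duodenum, jejunum and ileum, which is used for all values that follow. Fcgbp encodes a large protein that binds the mucin network, and Clca1 a protease of the mucus. These values chose the cells and are a description, as are the 0 UMIs of the 3 genes in enterocytes. The goblet gate held 198, 176 and 675 cells, or 4.63%, 4.02% and 8.32% of the barcodes within the limits, and 6.25% over all libraries (95% binomial interval, exact, 5.89 to 6.63%). With at most 20% mitochondrial UMIs the shares were 13.0%, 12.1% and 8.26%, of fewer barcodes, so the order of the segments turned with that limit. The nearest cells inside the threshold held 10.5, 10.2 and 10.0 UMIs of the gate genes per 10000, and the nearest outside it 9.80, 9.88 and 9.99.

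Within the gate the cells formed a low and a high group with few cells between them. In the ileum 276 of the 675 cells (40.9%) held under 100 UMIs of the gate genes per 10000, against 15 cells in the duodenum and 10 in the jejunum. Only 36 of all 1049 cells lay between 50 and 200. The low ileal cells had a median of 2740 UMIs, and Zg16 and Tff3, mucus genes the gate did not use, came to a median of 29.8 per 10000 in them, against 1872 in the 399 high ileal cells. At least 2% enterocyte genes were found in 119 of the 276 low cells and in 17 of the 399 high ones. Summed T cells of the ileal library, which should lack mucus genes, still held Muc2 at 7.55, Fcgbp at 13.4 and Clca1 at 5.87 per 10000. No gate gene exceeded 0.725 in T cells of the other libraries. T cell barcodes rich in mucus RNA were not left out of these sums. The median ileal T cell held only 2.70 UMIs of the 3 genes per 10000, against 14.5 in the low ileal cells. How much of the mucus signal of the low cells is RNA of other cells was not tested, and counts are given below also for the 748 cells at 100 or more (183, 166 and 399), which were 4.27%, 3.79% and 4.92% of the barcodes within the limits.

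**Figure D1:**
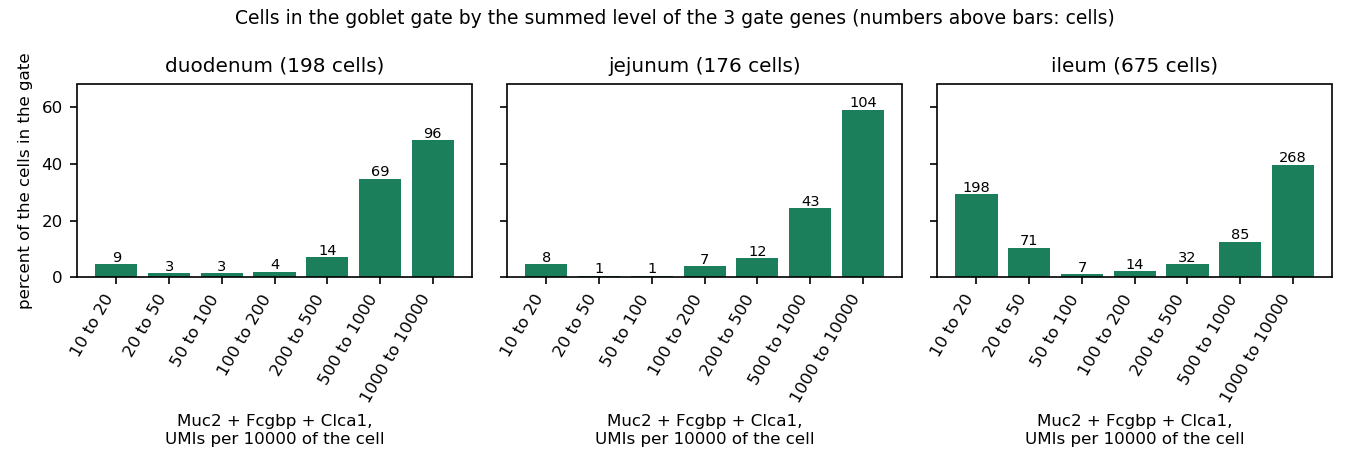
Cells in the goblet gate of each library by the summed UMIs of Muc2, Fcgbp and Clca1 per 10000 UMIs of the cell (x axis, 7 bins of unequal width) as a percent of that library's gate (y axis), with the number of cells above each bar. The ileum has 198 cells in the lowest bin, against 9 in the duodenum and 8 in the jejunum.

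Zg16 and Tff3 bear on the label, since the gate did not use them. At a low level they do not single out the same cells. A gate that asked for UMIs of both, at 10 or more per 10000, took 497, 472 and 3186 cells. The goblet gate took 198, 176 and 675. What the further cells are was not tested. Zg16 (chromosome 7 of GRCm38, 127050156 to 127087328), a lectin that binds bacteria in mucus, was counted at 2171, 1759 and 1451 UMIs per 10000 in goblet cells and at 2.10, 1.71 and 6.28 in enterocytes. Every goblet value lay far above every enterocyte value, with a log2 fold change of 9.34 ± 0.76 (SE, n = 3 libraries; edgeR quasi-likelihood test, adjusted p = 0.000489). Tff3 (chromosome 17, 31125306 to 31129646), a trefoil peptide secreted with mucin, stood at 697, 719 and 546 against 1.22, 1.10 and 4.08 (log2 8.58 ± 0.71, adjusted p = 0.000504, edgeR). With each cell thinned to 800 UMIs, a Zg16 UMI was found in 96.5%, 97.2% and 89.3% of goblet cells, in 17.4%, 16.0% and 44.5% of enterocytes and in 26.2%, 32.6% and 53.4% of T cells. Shares in enterocytes were below those in T cells in each library. The gates bear on this order, since enterocytes had to lack UMIs of the 3 mucus genes and T cells did not. Allowing 1 of the 3 genes would have given 3068, 3138 and 2229 enterocytes in place of 1707, 1627 and 726. This selection can lower mucus RNA in enterocytes and so enlarge the folds of mucus genes. Whether their Zg16 UMIs are background was not tested. Together the 5 genes Muc2, Fcgbp, Clca1, Zg16 and Tff3 took 37.6%, 34.5% and 28.7% of all goblet cell UMIs, against at most 0.104% in enterocytes and 0.0740%, 0.0661% and 1.09% in T cells.

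Over the whole transcriptome, 9927 genes had enough UMIs to test against enterocytes, and the genes of the gates were left out of that number. Of these, 1854 were higher in goblet cells (18.7%) and 2045 lower (20.6%) at an adjusted p under 0.05 (edgeR quasi-likelihood test with the library as a block), and the median log2 fold change was -0.02. With the 748 cells at 100 or more per 10000, 1912 of 9716 were higher (19.7%) and 2059 lower (21.2%). These percentages are the background for the lists that follow, whose members were chosen with earlier results known. A gene found only in goblet cells could pass the filter on low counts only because it was high there, so counts over a list describe the genes that could be measured. Absorptive lists moreover hold genes that go with the 6 genes of the enterocyte gate.

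Goblet cells had fewer mitochondrial UMIs, with medians of 7.23%, 6.31% and 8.06% per cell against 28.8%, 29.0% and 11.7% in enterocytes. Their median depth was 12289, 8189.5 and 4384 UMIs against 11455, 11588 and 5706.5. With the limit set at 20% mitochondrial UMIs in both classes, 1369 genes were higher and 1475 lower. Leaving out the jejunum lowered the counts to 1045 and 1096. Pairs of libraries shared 20 to 28 barcodes.

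Among the 23 listed secreted mucus and defence proteins, 13 were measured well enough to test outside the gate, and 11 of them were higher, 1 was lower and 1 did not pass, with a median log2 fold change of 6.42. Pla2g10, a secreted phospholipase, stood at 1.75, 1.14 and 1.17 UMIs per 10000 against 0.000481, 0.00141 and 0.00198 in enterocytes (log2 10.23 ± 0.39, adjusted p = 0.000133, edgeR). In enterocytes 3 counts correspond to 0.00144, 0.00141 and 0.00593 per 10000. The size of this fold, and of others against enterocyte levels that low, thus rests on few UMIs. Tpsg1, a membrane-bound serine protease, followed with 3.20, 3.48 and 3.93 against 0.00192, 0.00563 and 0.0138 (log2 9.34 ± 0.49). Ccl6, a chemokine, was counted at 21.9, 18.0 and 14.3 against 0.0231, 0.0291 and 0.0810 (log2 8.93 ± 0.63). All 3 genes stayed below 0.6 per 10000 in T cells of every library. The tissue kallikrein Klk1 rose by a log2 of 8.21. The lectin Itln1 and the ribonuclease Ang4, also made by Paneth cells, rose by 4.33 and 5.61.

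The 2 guanylins, peptides that switch on chloride and water secretion through guanylate cyclase C, went opposite ways. Guca2a was at 4.86, 15.2 and 22.4 UMIs per 10000 in goblet cells against 1.11, 5.25 and 10.2 in enterocytes (log2 1.62 ± 0.27, adjusted p = 0.00565, edgeR). Guca2b was at 4.76, 5.61 and 5.63 against 39.3, 39.9 and 22.3 (log2 -2.60 ± 0.26, adjusted p = 0.000922, edgeR). Guca2a was higher and Guca2b lower in goblet cells in every library. Dmbt1, a scavenger protein that binds mucus and bacteria, did not pass. Its level of 0.165, 0.0896 and 0.284 in goblet cells lay below the enterocyte level in the duodenum and the jejunum (0.369 and 0.144) and above it in the ileum (0.0632). The gel-forming mucins of stomach and airway were nearly absent. Muc5ac and Muc5b had 0 UMIs in goblet cells of all libraries, which allows up to 0.0105, 0.0149 and 0.00495 per 10000 (3 counts per library), and Muc6 and Retnlb, a defence protein of colonic goblet cells, had at most 0.00165.

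Of the 8 membrane mucins, 4 could be tested. Muc13, a transmembrane mucin of the whole epithelium, was counted at 22.0, 22.8 and 20.4 in goblet cells and 29.3, 29.2 and 34.7 in enterocytes and did not pass (log2 -0.49 ± 0.21, adjusted p = 0.113, edgeR). Muc3 stood at 3.09, 3.35 and 5.36 against 21.3, 11.1 and 25.9 (log2 -2.24 ± 0.23), while its neighbour Muc3a on chromosome 5 stood at 3.45, 3.71 and 2.41 against 0.216, 0.0296 and 0.316 (log2 4.54 ± 0.79, adjusted p = 0.0064, edgeR). The 2 gene models lie about side by side (137134922 to 137149322 and 137208813 to 137212389) and belong to 1 family, so how the counting split their reads is uncertain. Muc4 did not pass.

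**Figure D2:**
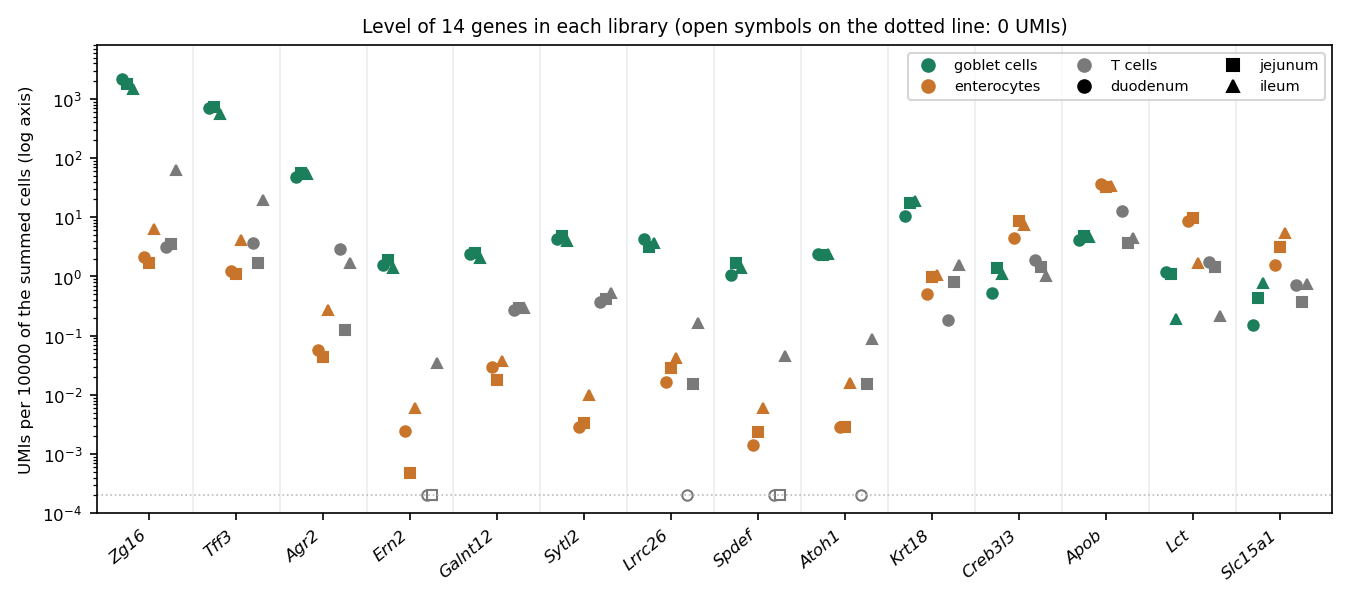
Level of 14 genes in goblet cells, enterocytes and T cells (colours) of each library (symbols), in UMIs per 10000 UMIs of the summed cells on a log axis. The 10 genes from Zg16 to Krt18 lie higher in goblet cells than in enterocytes in every library, while Creb3l3, Apob, Lct and Slc15a1 lie lower. Apart from Zg16 and Tff3, the rule that named these genes required the same direction in all libraries.

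Mucin is built up by enzymes that attach and extend O-linked sugars. Of 27 tested genes of mucin O-glycosylation (35 listed genes were in the matrix with 1 row each), 16 were higher and 5 lower, with a median of 1.48. Galnt5 and Galnt12, enzymes that attach the first sugar, stood out. Galnt12 was counted at 2.38, 2.53 and 2.02 in goblet cells against 0.0298, 0.0178 and 0.0375 (log2 6.47 ± 0.32, adjusted p = 0.000163, edgeR), and Galnt5 rose by a log2 of 9.42 ± 0.47. Gcnt3, which branches the chains, stood at 5.19, 3.61 and 3.81 against 0.149, 0.0108 and 0.111 (log2 6.05 ± 0.70). Chst4, which adds sulfate to them, stood at 1.29, 1.20 and 0.995 against 0.0284, 0.0178 and 0.0336 (log2 5.57 ± 0.27). Other members of the same enzyme families differed less. Galnt6 held 2.07, 2.67 and 2.18 against 1.42, 2.63 and 1.91 (log2 0.28 ± 0.20) and Galnt1 1.41, 2.08 and 1.63 against 1.51, 1.42 and 1.27 (log2 0.29 ± 0.16), and neither passed. The sialyltransferase St3gal4 (log2 -1.89 ± 0.17) and the galactosyltransferase B4galt1 (log2 -1.45 ± 0.19) were lower.

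Enzymes that make the activated sugars followed, with 9 of 15 tested genes higher, 2 lower and a median of 0.89. Gnpnat1, of the route to UDP-N-acetylglucosamine, was at 0.502, 0.592 and 0.775 UMIs per 10000 against 0.0803, 0.0704 and 0.0612 (log2 3.12 ± 0.22, adjusted p = 0.000332, edgeR). Gmds, of GDP-fucose synthesis, rose by 2.54 ± 0.23, Nans, of sialic acid synthesis, by 2.26 ± 0.15 and Galk2 by 2.15 ± 0.18. Ugp2 (log2 -0.32 ± 0.16) and Pgm3 (log2 0.08 ± 0.27) did not pass.

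Genes for the entry of new proteins into the ER were higher than in enterocytes almost throughout. Of 28 genes of the translocon, the signal peptidase and the oligosaccharyltransferase, all tested, 26 were higher and none lower, with a median log2 fold change of 1.27 and a range from -0.01 to 2.71. Sec11c, a subunit of the signal peptidase, stood at 1.84, 2.18 and 2.33 against 0.341, 0.276 and 0.371 in enterocytes (log2 2.71 ± 0.17, adjusted p = 0.000281, edgeR). Ssr4, of the complex beside the translocon, stood at 3.29, 3.11 and 3.47 against 0.823, 0.799 and 0.786 (log2 2.06 ± 0.16). Krtcap2 and Ddost, subunits of the oligosaccharyltransferase, rose by 2.34 ± 0.19 and 1.98 ± 0.17. T cells of the same libraries held Sec11c at 1.54, 2.25 and 2.28, close to goblet cells, so its high level was not particular to them. The whole list summed to 38.8, 42.9 and 41.3 UMIs per 10000 in goblet cells and 17.9, 16.1 and 14.9 in enterocytes. It summed to 31.7, 40.1 and 39.2 in T cells, 46.9, 47.2 and 41.0 in enteroendocrine cells and 39.3, 27.8 and 23.1 in tuft cells. As shares of all UMIs, the level of the list was thus not particular to goblet cells either. Sec63 and Srp54a were the 2 that did not pass.

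Protein folding genes rose over a wider range. Of 38 tested genes of ER folding and the unfolded protein response, 28 were higher and 2 lower (median 0.99). Agr2 (chromosome 12, 35992907 to 36004087), a disulfide isomerase needed for mucin, was counted at 48.4, 55.8 and 54.3 against 0.0563, 0.0432 and 0.269 in enterocytes (log2 9.29 ± 0.72, adjusted p = 0.000406, edgeR). Ern2, the ER stress sensor of mucous cells, was at 1.58, 1.91 and 1.39 against 0.00241, 0.000469 and 0.00593 (log2 9.66 ± 0.50). Its relative Ern1, found in most cells, was at 0.140, 0.159 and 0.129 against 0.111, 0.0685 and 0.0553 (log2 0.93 ± 0.25, adjusted p = 0.0279, edgeR). Both stress sensors were thus higher in goblet cells, at very different folds. Txndc5, a thioredoxin-like isomerase, rose by 5.84 ± 0.29 and Selenom, a selenoprotein of the ER, by 6.85 ± 0.81. The general chaperones moved less. Hspa5 was at 4.54, 6.72 and 7.53 against 2.02, 2.14 and 3.61 (log2 1.32 ± 0.18), and Xbp1, the factor that Ern1 and Ern2 switch on by splicing, rose by 1.59 ± 0.17. Canx (log2 0.37 ± 0.16) and Edem1 (log2 -0.19 ± 0.20) did not pass.

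Promoter sequences of these folding genes are shown because many chaperone genes carry the ER stress response element, to which Atf6 and Xbp1 bind. The element was searched as CCAAT, 9 bases of any kind and CCACG on both strands, in windows from 250 bases before to 50 bases after each RefSeq start (GRCm38.p6). It was found in 9 of the 32 folding genes with a window (28.1%), against 37 of all 27025 genes with one (0.137%), and in 39 of all 32851 windows (0.119%). It was found in none of the 22 translocon genes and none of the 17 genes of granules and exocytosis with a window. The element was chosen because many chaperone genes carry it, so its excess among folding genes is a description and no support. The stretches below give the element with its ends in capitals, 5 flanking bases on each side, in the direction of the gene. Those of Pdia6, Hspa5 and Syvn1 read CCAAT first, and that of Calr carries the reverse complement. They lie 89, 56, 35 and 153 bases before the start of these genes.
Pdia6, chr12:17266486-17266514, + strand: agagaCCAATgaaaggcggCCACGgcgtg
Hspa5, chr2:34772020-34772048, + strand: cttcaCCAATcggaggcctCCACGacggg
Calr, chr8:84847070-84847098, - strand: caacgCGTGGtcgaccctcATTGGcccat
Syvn1, chr19:6046527-6046555, + strand: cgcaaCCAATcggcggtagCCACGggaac
The disulfide isomerase Pdia6 was higher in goblet cells by a log2 of 3.48, Hspa5 by 1.32 and the lectin chaperone Calr by 0.72. Syvn1, a ubiquitin ligase that removes misfolded proteins, stood at -0.11 and did not pass (adjusted p = 0.732, edgeR). The same element therefore lay before genes with a large difference, a small one and one that did not pass. Agr2 has a window without it, and Ern2 had no window in the table.

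Genes of traffic from the ER to the Golgi did not rise as a group. Of 40 tested, 11 were higher, 12 lower and 17 did not pass, with a median of -0.08, close to that of all genes. Cargo receptors were among those that rose. Tmed9 was at 1.16, 1.31 and 1.36 against 0.163, 0.159 and 0.227 in enterocytes (log2 2.85 ± 0.17, adjusted p = 0.000276, edgeR) and Tmed3 at 1.27, 1.30 and 1.39 against 0.178, 0.235 and 0.249 (log2 2.62 ± 0.19). Kdelr3, which returns ER proteins, rose by 3.26 ± 1.01 (adjusted p = 0.0461, edgeR) but was at 0.331 in jejunal enterocytes against 0.0111 and 0.00593 in the others, and it did not pass under 5 of the alternatives. Coat proteins of the vesicles that leave the ER were among those that fell. Sec23a was at 0.435, 0.418 and 0.378 against 1.56, 1.84 and 1.22 (log2 -1.86 ± 0.18, adjusted p = 0.000807, edgeR). In 2 pairs of related genes 1 was higher and 1 lower. The GTPase Sar1a stood at log2 1.02 ± 0.16 and Sar1b, needed for chylomicron export, at -1.18 ± 0.20, and the large-cargo receptor Mia3 at 1.11 ± 0.16 and Mia2 at -1.42 ± 0.16. The Golgi protein Golga4 and the GTPase Arf4 did not pass.

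**Figure D3:**
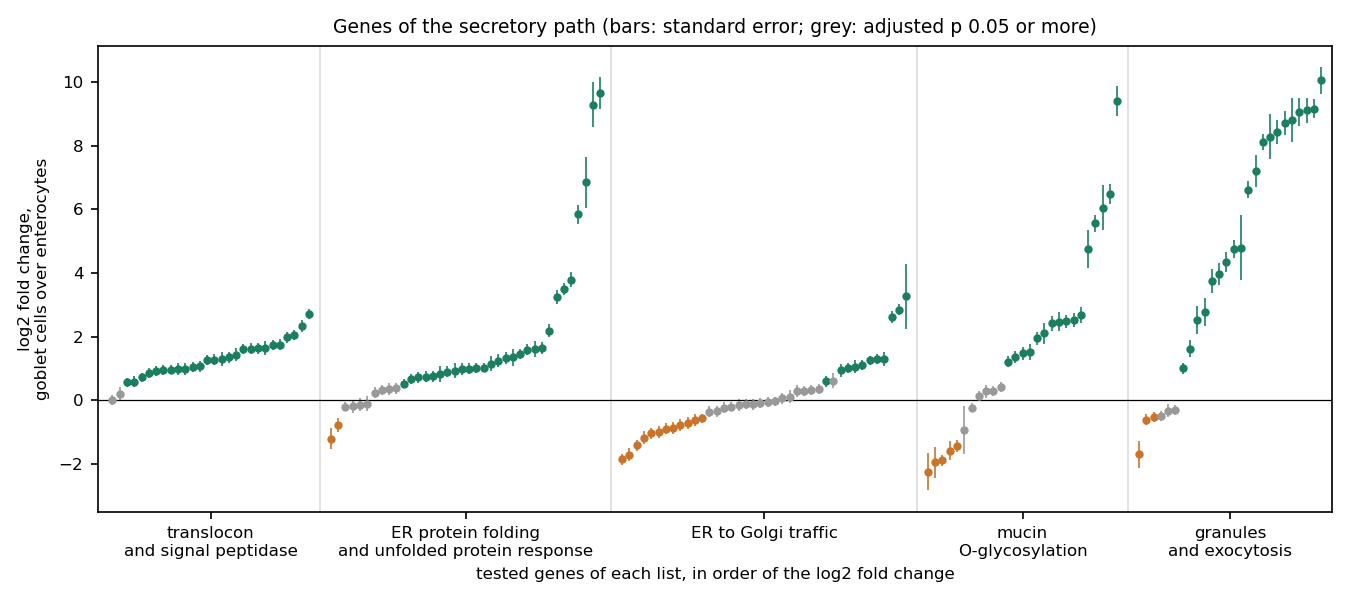
Log2 fold change of goblet cells over enterocytes (y axis; bars are standard errors, n = 3 libraries) for each tested gene of 5 lists of the secretory path, in order of its value within the list (x axis). Green genes are higher and orange ones lower at an adjusted p under 0.05, and grey ones did not pass. The translocon genes lie between -0.01 and 2.71, traffic genes on both sides of 0, and most genes of granules and exocytosis above 2.

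Release of granules showed some of the largest folds. Of 26 tested genes of granules and exocytosis, 20 were higher and 3 lower, with a median of 4.55. Sytl2, an effector of Rab27 that docks granules, was counted at 4.30, 4.85 and 3.90 against 0.00289, 0.00328 and 0.00988 (log2 10.06 ± 0.43, adjusted p = 0.000133, edgeR), and Rab27a itself rose by 8.43 ± 0.38. Fer1l6, of the ferlin family of membrane fusion proteins, stood at 3.14, 3.26 and 3.32 against 0.00289, 0.00610 and 0.0138 (log2 9.07 ± 0.45). Bcas1 (log2 9.17 ± 0.29) and the digestive tract calpain Capn9 (log2 9.11 ± 0.38) lay close to it. The SNARE Vamp8, which enterocytes also use, was at 2.54, 2.38 and 2.76 against 2.62, 3.12 and 4.22 and did not pass (log2 -0.33 ± 0.20, adjusted p = 0.243, edgeR), nor did Stxbp2. Nlrp6, an inflammasome sensor tied to mucus release, was lower at 0.155, 0.149 and 0.280 against 0.960, 0.711 and 0.379 (log2 -1.70 ± 0.42, adjusted p = 0.0222, edgeR).

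Ion and calcium transport genes split between the cells, with 10 of 19 tested higher and 6 lower. Ano7, of the anoctamin family, rose by a log2 of 9.21 ± 0.42, from at most 0.0079 UMIs per 10000 in enterocytes to between 1.56 and 3.73. Lrrc26, a subunit that opens BK potassium channels, stood at 4.29, 3.16 and 3.75 against 0.0164, 0.0282 and 0.0415 (log2 7.15 ± 0.42, adjusted p = 0.000259, edgeR). The Golgi calcium pump Atp2c2 rose by 7.07 ± 0.31, the potassium channel Kcnk6 by 6.98 ± 0.74 and the chloride loader Slc12a2 by 4.89 ± 0.21. The absorptive exchangers Slc26a6 (log2 -2.77 ± 0.18) and Slc9a3 (log2 -2.52 ± 0.17) were lower. Cftr, a chloride channel, was low in both cells, at 0.0843, 0.0597 and 0.0759 in goblet cells and 0.305, 0.183 and 0.0415 in enterocytes, and did not pass.

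Transcription factors of the secretory branch were higher in 13 of 17 tested cases and lower in 1, with a median of 3.67. Atoh1 (chromosome 6, 64729125 to 64731245) was counted at 2.41, 2.28 and 2.38 in goblet cells against 0.00289, 0.00282 and 0.0158 in enterocytes (log2 8.93 ± 0.53, adjusted p = 0.000259, edgeR). Spdef (chromosome 17, 27714352 to 27728955), which drives goblet cell maturation, was at 1.06, 1.66 and 1.41 against 0.00144, 0.00235 and 0.00593 (log2 9.08 ± 0.33). Foxa3 rose by 7.86 ± 0.59 and Foxa2 by 7.53 ± 0.54. Factors also found in enterocytes showed smaller differences. Klf4, needed for goblet cell differentiation in the colon, was at 7.04, 11.3 and 9.83 against 4.06, 6.52 and 7.67 (log2 0.67 ± 0.20, adjusted p = 0.0395, edgeR), while Elf3 and Tcf7l2 did not pass. The membrane-bound factors of the Creb3l family went different ways, with Creb3l1 (log2 5.17 ± 0.28) and Creb3l4 (log2 5.33 ± 0.22) higher and Creb3l2 lower (log2 -0.93 ± 0.23).

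Creb3l3, the family member of liver and enterocytes, was at 0.527, 1.36 and 1.11 in goblet cells against 4.53, 8.59 and 7.28 (log2 -2.80 ± 0.17, adjusted p = 0.000276, edgeR). It led the absorptive transcription factors, of which 15 of 29 tested were lower and 2 higher (median -0.85). Prdm1, which governs the change from neonatal to adult epithelium, fell by 2.52 on the log2 scale, Nr1h3, a sterol receptor, by 2.14 and Nr1i3, a xenobiotic receptor, by 2.05. Hnf4a was at 1.73, 2.07 and 2.22 against 2.57, 3.47 and 5.45 (log2 -0.85 ± 0.22, adjusted p = 0.0258, edgeR). Klf5 and Gata6 did not pass, and the Notch target Hes1 was among the higher ones (log2 1.18 ± 0.20).

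Receptors and immune signals showed no common direction, with 5 of 33 tested higher and 12 lower. The muscarinic receptors, through which acetylcholine triggers mucus release, were higher. Chrm1 was at 0.151, 0.104 and 0.115 against 0.00144, 0.000469 and 0.00198 (log2 6.76 ± 0.45, adjusted p = 0.000288, edgeR) and Chrm3 at 0.123, 0.289 and 0.211 against 0.0106, 0.00188 and 0 (log2 5.39 ± 0.76, adjusted p = 0.00299, edgeR). Both counts are low. The rule that named these genes required the same direction in all 3 libraries, so their separation adds no support. The Notch ligands Dll1 (log2 1.28 ± 0.18) and Dll4 (log2 2.16 ± 0.44) were higher as well. Of the 5 listed genes of antigen presentation by class II molecules, Cd74, H2-Aa and H2-Eb1 were lower, and H2-Ab1 and Ciita did not pass. Cd74 was at 0.130, 0.269 and 2.43 against 1.33, 1.41 and 7.03 (log2 -2.35 ± 0.33), and its ileal level was 0.781 without the low cells. H2-Aa stood at log2 -2.30 ± 0.34, with an ileal level of 0.569 that was 0.231 without them. Pigr, which carries IgA across the epithelium, stood at 7.64, 4.93 and 4.16 against 21.9, 8.99 and 2.33, and Il18 at 0.706, 0.269 and 0.401 against 2.70, 0.693 and 0.247. Both were lower in goblet cells of the duodenum and the jejunum and higher in those of the ileum, and neither passed.

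Absorptive genes outside the gate were lower in goblet cells almost throughout. Of 19 tested brush border enzymes 18 were lower, of 27 genes of fat absorption and lipoproteins 24, and of 31 nutrient transporters 25, with none higher and medians of -2.66, -2.02 and -2.21. Nt5e, an ectonucleotidase, was at 0.0457, 0.413 and 0.508 against 0.463, 3.07 and 6.84 (log2 -3.34 ± 0.24, adjusted p = 0.000326, edgeR), and lactase, Lct, at 1.17, 1.12 and 0.190 against 8.58, 9.63 and 1.71 (log2 -3.02 ± 0.20). Apob, the backbone of chylomicrons, was at 4.18, 4.79 and 4.60 against 36.4, 32.0 and 33.2 (log2 -2.88 ± 0.19, adjusted p = 0.000297, edgeR). The nucleoside carrier Slc28a2 (log2 -3.32 ± 0.18), the phosphate carrier Slc34a2 (-3.20 ± 0.34), the folate carrier Slc46a1 (-3.08 ± 0.21) and the peptide carrier Slc15a1 (-2.98 ± 0.18) were lower. The calcium binding protein S100g and the iron exporter Slc40a1, found mainly in duodenal cells, did not pass.

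T cells of the same libraries, which should lack absorptive genes, held them as well. The 21 brush border enzymes outside the gate summed to 12.4, 19.3 and 27.3 UMIs per 10000 in goblet cells, 26.1, 17.7 and 27.0 in T cells and 85.9, 107 and 157 in enterocytes. Among goblet cells at 100 or more of the gate genes they summed to 11.2, 16.3 and 15.6, and in the 276 low ileal cells to 83.5. As a share of all UMIs these enzymes summed to less in mucus-rich goblet cells than in T cells in each library. Single enzymes lay above T cells in 0 of 17, 7 of 19 and 1 of 19 cases. The 5 mucus genes took 39.6%, 36.4% and 34.5% of UMIs in mucus-rich cells, against at most 1.09% in T cells. That load lowers the share of every other gene. Sums without it were not computed, so the order against T cells given here and below holds only for shares of all UMIs. Nutrient transporters summed to 19.2, 10.3 and 16.9 in goblet cells, 27.9, 9.14 and 17.1 in T cells and at least 46.0 in enterocytes, and to 15.4, 9.14 and 10.4 in the mucus-rich cells. Fat absorption genes outside the gate summed to 36.9, 58.1 and 143.8 in goblet cells, 35.3, 50.5 and 90.8 in the mucus-rich ones, 62.5, 38.7 and 107.0 in T cells and 193, 302 and 652 in enterocytes. This list lay above T cells in the jejunum with either gate and in the ileum only with the low cells included. The ileal level of single genes also moved with the low cells, from 4.60 to 2.20 for Apob, 0.508 to 0.265 for Nt5e and 1.11 to 0.486 for Creb3l3 without them, further below enterocytes. The part of free RNA in these levels was not tested.

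**Figure D4:**
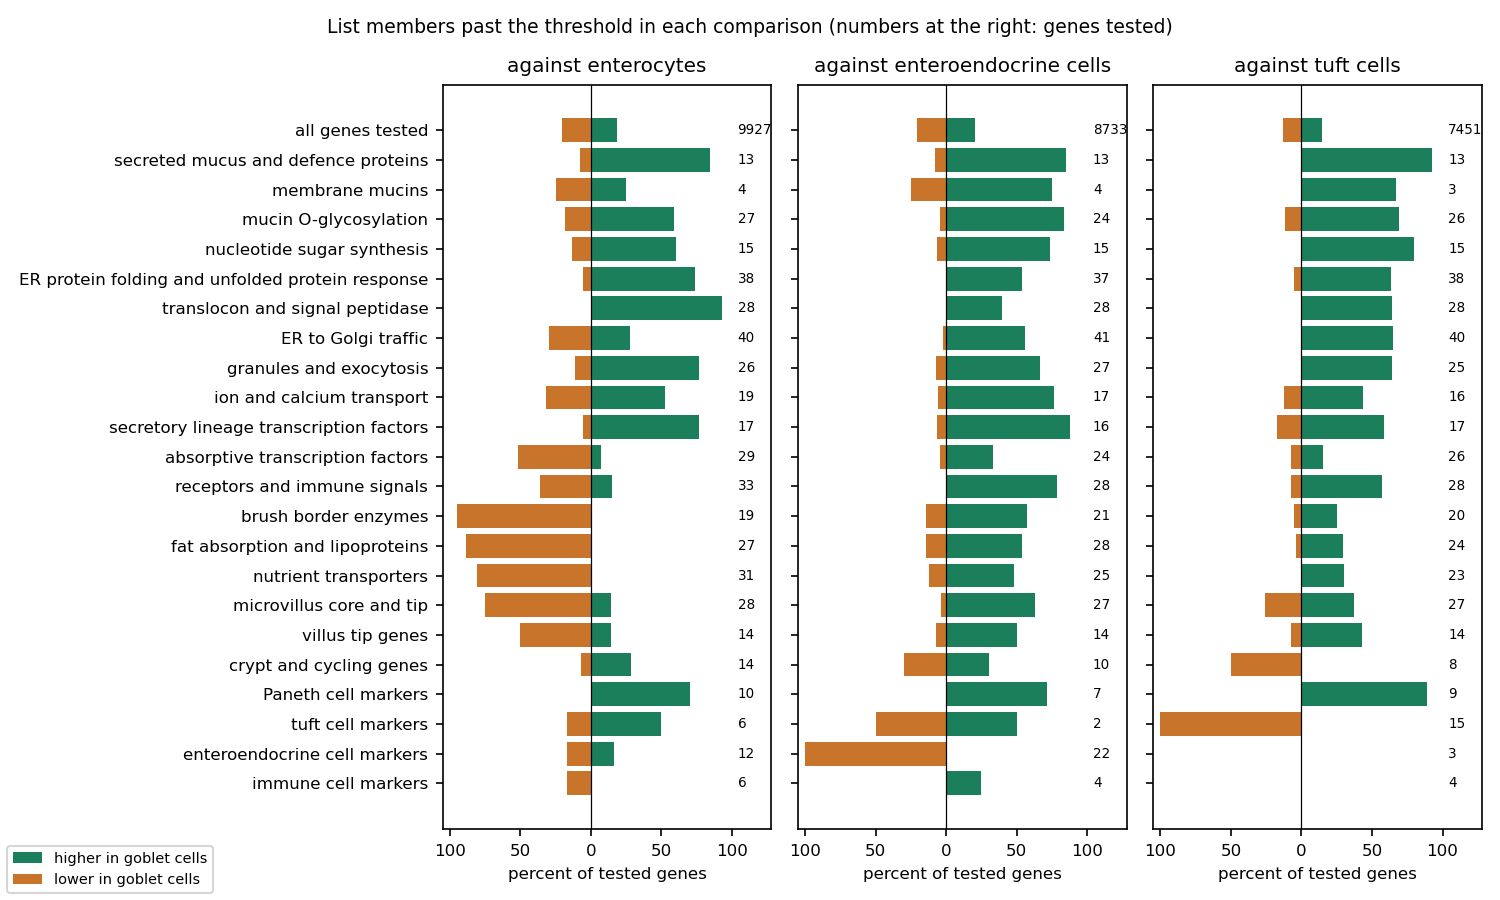
Percent of the tested genes of each list that were higher (green, to the right) or lower (orange, to the left) in goblet cells at an adjusted p under 0.05, against enterocytes, enteroendocrine cells and tuft cells, with the number tested at the right and all genes in the top row. Against enterocytes 18 of 19 brush border enzymes are lower and 26 of 28 translocon genes higher.

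The microvillus core followed the absorptive lists, with 21 of 28 tested genes lower and 4 higher (median -1.28), and the 4 included keratins. Krt18 was counted at 10.3, 17.5 and 19.1 in goblet cells against at most 1.06 in enterocytes (log2 4.25 ± 0.21, adjusted p = 0.000163, edgeR), Krt7 at 1.59, 2.36 and 3.20 against 0.0207, 0.0324 and 0.255 (log2 5.36 ± 0.63), and Krt19 rose by 2.54 ± 0.18. Krt8, the usual partner of Krt18 in filaments, was at 27.3, 42.3 and 53.0 against 19.3, 38.8 and 49.3 and did not pass (log2 0.27 ± 0.23, adjusted p = 0.395, edgeR). Pdzk1, a scaffold under the brush border, fell by 2.59 on the log2 scale. Tmigd1 did so by 2.97, and nearly all its UMIs were ileal.

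Villus tip genes, which rise as cells near shedding, were lower in 7 of 14 tested cases and higher in 2. Ada, of purine salvage, was at 2.19, 3.38 and 2.79 against 20.9, 23.0 and 35.6 (log2 -3.21 ± 0.25) and Pmp22 at -3.09 ± 0.37. Fos and the nuclear RNA Neat1, both responsive to stress, did not pass. Of 14 tested crypt and cycling genes, 4 were higher and 1 lower. Sox9, of crypt and secretory cells, stood at 0.232, 0.144 and 0.267 against 0.0144, 0.0127 and 0.0257 (log2 3.67 ± 0.28, adjusted p = 0.000401, edgeR) and Mki67 at 0.0211, 0.0398 and 0.0693 against 0.00914, 0.00516 and 0.0237 (log2 1.85 ± 0.46, adjusted p = 0.0234, edgeR). A UMI of Mki67 or Top2a was found in 3.03%, 6.25% and 4.30% of goblet cells, 1.99%, 1.78% and 2.89% of enterocytes and 2.38%, 6.67% and 5.96% of T cells, at unequal depth.

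Paneth cells, the other granule-filled cells of the crypt, could enter the gate. Of 10 tested Paneth markers 7 were higher, and 16 of the 18 listed were in the matrix. Defa24, an alpha-defensin whose reads near-identical copies may share, was at 120, 9.15 and 26.7 UMIs per 10000 against 0.231, 0.609 and 1.96 in enterocytes (log2 5.17 ± 1.24, adjusted p = 0.0204, edgeR), and Lyz1, lysozyme, at 28.0, 0.911 and 5.40 against 0.0977, 0.148 and 0.620 (log2 4.26 ± 1.24, adjusted p = 0.0383, edgeR). A few cells carried most of it in the duodenum and the ileum. In 5 duodenal and 3 ileal cells of the gate the Paneth genes came to at least 1000 per 10000, and these cells held 30641 of the 34225 and 12150 of the 16200 Defa24 UMIs. With the 748 cells at 100 or more of the gate genes, 3 of 9 tested markers were higher, and the log2 fold change of Lyz1 was 3.03 and no longer passed. Among those cells with under 1000 of the Paneth genes, Defa24 was at 13.5, 9.58 and 6.99 and Lyz1 at 1.41, 0.952 and 0.649, or 10.4, 9.93 and 9.29 Lyz1 UMIs per 100 of Defa24. The ratio was 24.8 and 22.9 in the Paneth-rich cells of the gate, 16.8, 23.3 and 28.9 in those outside it, 42.2, 24.3 and 31.7 in enterocytes and 50.0, 27.9 and 35.5 in T cells. The share of Lyz1 in the summed mucus-rich cells was thus lower than in any of these other groups in each library, as a description with no test. A few cells weighed heavily on it. The 12, 9 and 18 cells with 50 to 1000 of the Paneth genes held 3118 of the 3578, 1271 of the 1822 and 2110 of the 3508 Defa24 UMIs. Their ratio was 2.21, 4.80 and 2.89, so the sums do not describe the other mucus-rich cells. Duodenal T cells held only 3 UMIs of Lyz1 and 6 of Defa24.

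**Figure D5:**
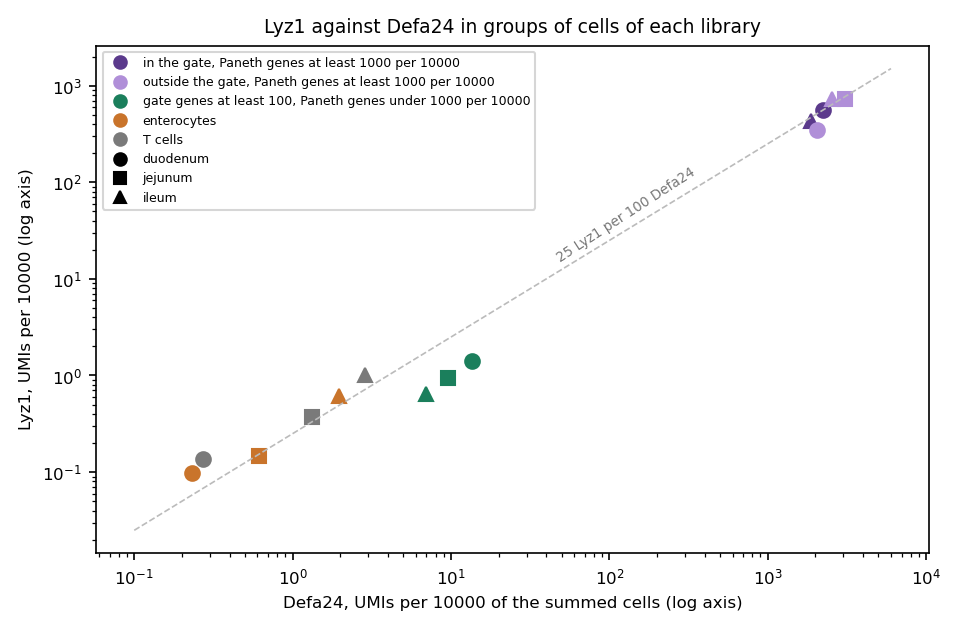
Lyz1 against Defa24, both in UMIs per 10000 of the summed cells on log axes, for groups of cells (colours) in each library (symbols), with a dashed line at 25 Lyz1 UMIs per 100 of Defa24 as a guide. Summed cells of the gate at 100 or more per 10000, with Paneth genes under 1000, lie below the line, at 10.4, 9.93 and 9.29 per 100. In each library a few of these cells held most of their Defa24 UMIs.

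Markers of other cells were low. The tuft list, without Krt18 and Cd24a, summed to 0.119, 0.169 and 0.567 UMIs per 10000 in goblet cells against 135 to 143 in tuft cells, with Trpm5, the tuft cell cation channel, at 0, 0.00498 and 0.0198. The immune list summed to 1.22, 1.72 and 2.81 against 350 to 452 in T cells. In enterocytes it summed to 3.52, 9.91 and 2.12, and 2, 6 and 0 enterocytes held at least 100 per 10000 of it. What these cells add to the enterocyte levels was not tested. The enteroendocrine list summed to 3.77, 4.56 and 14.3 against 1680 to 2513 in enteroendocrine cells. At least 100 per 10000 of it was found in 11 ileal goblet-gate cells, 2 of them in the high group. Most of that sum was secretin, Sct, at 3.30, 4.13 and 9.52 in goblet cells and 0.266, 0.790 and 1.05 in enterocytes (log2 3.09 ± 0.32, adjusted p = 0.000982, edgeR), far below the 324, 570 and 519 of enteroendocrine cells. Cd24a, a surface protein of crypt and tuft cells, was higher too (log2 3.95 ± 0.30). Without the gate cells that held 100 or more per 10000 of any of these lists, 1848 genes were higher and 2029 lower than in enterocytes.

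Other secretory cells served to show which differences go beyond those from enterocytes. Enteroendocrine cells (47, 23 and 69) held UMIs of at least 2 of Chga, Chgb and Neurod1, tuft cells (17, 18 and 41) of at least 2 of Dclk1, Trpm5 and Avil, each at 10 or more per 10000 and outside the gates named before. Both comparisons use the same goblet cell sums. Against enteroendocrine cells 1809 of 8733 genes were higher (20.7%) and 1792 lower (20.5%), and against tuft cells 1071 of 7451 were higher (14.4%) and 971 lower (13.0%). These splits depended on the scaling, with 28.7 to 37.6% of goblet cell UMIs taken by the 5 mucus genes. Scaled to total UMIs in place of TMM, the median of all genes moved to -0.66 and -0.43, with 784 higher and 3930 lower against enteroendocrine cells and 604 and 1783 against tuft cells. Against enterocytes the median moved only to -0.05, with 1646 higher and 2017 lower.

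Under both scalings most mucus genes were higher than in either cell, and most O-glycosylation genes were higher than in enteroendocrine cells. Of 13 tested mucus and defence genes 11 were higher and 1 lower than in enteroendocrine cells (10 and 1 by total UMIs) and 12 were higher than in tuft cells (11 by total UMIs), and the lower one was Reg4 (log2 -3.23). Of 24 tested O-glycosylation genes 20 were higher than in enteroendocrine cells and 1 was lower, and 15 and 1 by total UMIs. Agr2 was at 17.1, 11.2 and 9.21 UMIs per 10000 in enteroendocrine cells and 0.0722, 0.0723 and 0.307 in tuft cells, which placed goblet cells higher by a log2 of 2.75 ± 0.29 and 8.80 ± 0.51. For genes of ER entry the result against enteroendocrine cells depended on the scaling. Of the 28 translocon genes 11 were higher and none lower against enteroendocrine cells, but 1 was higher and 5 lower by total UMIs, and traffic genes went from 23 higher and 1 lower of 41 to 4 and 3. Selenom, so much higher than in enterocytes, stood at 6.25, 6.06 and 7.04 in enteroendocrine cells (log2 0.33 ± 0.19, adjusted p = 0.204, edgeR) and at 18.3, 15.3 and 18.0 in tuft cells (log2 -1.22 ± 0.26, adjusted p = 0.00163, edgeR). Sox9 was at 4.77, 5.14 and 5.07 in tuft cells, above goblet cells by far (log2 -4.05 ± 0.26), and a UMI of the stem cell genes Lgr5 or Ascl2 was found in 5 of 17 duodenal, 5 of 18 jejunal and 7 of 41 ileal tuft-gate cells. Krt18, also a tuft marker, was lower than in tuft cells (log2 -2.62 ± 0.34) and higher than in enteroendocrine cells (log2 1.56 ± 0.22).

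Among genes in none of the lists, those with the largest rise against enterocytes included genes of signalling and of unknown role. Clps, the cofactor of pancreatic lipase, was counted at 22.1, 8.42 and 0.365 UMIs per 10000 in goblet cells and at 0.0241, 0.00798 and 0.00395 in enterocytes (log2 9.79 ± 0.51, adjusted p = 0.000188, edgeR). Its level was highest in the duodenal library and lowest in the ileal one, and T cells held at most 0.0454. Bace2, a protease, was at 1.55, 1.06 and 1.36 against 0.00241, 0.000469 and 0 (log2 9.99 ± 0.36). Ffar4, a receptor for long-chain fatty acids, was at 0.959, 0.388 and 0.343 against 0.000481, 0.000469 and 0.00198 (log2 9.70 ± 0.45) but did not differ beyond error from enteroendocrine cells (0.316, 0.428 and 0.620). Enterocyte levels of Ffar4 lay below 3 counts in each library. Myof, a ferlin, Frmd3 and the prostaglandin D2 receptor Ptgdr rose by 10.30, 9.99 and 9.78. 9530053A07Rik rose by 10.13. A further 3 genes had no UMI in any enterocyte sum. 9030622O22Rik was at least 158-fold, 134-fold and 5.01-fold higher, Gm26801 at least 94.9-fold, 113-fold and 10.3-fold and Rnf39 at least 51.1-fold, 99.0-fold and 26.7-fold, taking 3 counts per library as the floor.

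Of the genes in no list that were lower, Reg1, a secreted lectin, had the largest change. It was counted at 4.01, 0.134 and 0.00165 against 42.1, 1.84 and 0.504 (log2 -4.13 ± 0.64, adjusted p = 0.00414, edgeR). Clca4a, of the same gene family as the mucus protease Clca1, was at 0.130, 1.57 and 3.05 against 3.07, 14.6 and 26.4 (log2 -3.56 ± 0.30), close to its level in jejunal and ileal T cells (1.27 and 2.77). The cyclin Ccne2 stood at 0.00702, 0.0149 and 0.0231 against 0.163, 0.198 and 0.182 (log2 -3.49 ± 0.33). 3300005D01Rik, Ptafr, Gpr17, Arnt2, Sp5, Mbl2 and Gm31105 made up the rest, all below 1 UMI per 10000 in both cells and between -3.75 and -3.35.

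Single goblet cells varied in how much of each mucus gene they held. Among the 183, 166 and 399 cells at 100 or more of the gate genes, Zg16 lay between 841 and 2779, 506 and 2214 and 550 and 2141 UMIs per 10000 from the lower to the upper quartile. Across these cells the level of Zg16 went with that of Tff3 (Spearman's rho 0.75, 0.78 and 0.72), Agr2 (0.59, 0.62 and 0.41), Clca1 (0.50, 0.60 and 0.56) and Muc2 (0.59, 0.57 and 0.37), but little with Fcgbp (0.14, 0.10 and 0.04) or Klf4 (-0.04, -0.11 and 0.08). These are descriptions across cells that share a library, and Zg16 also went with the UMIs per cell (0.58, 0.59 and 0.61). The cells were selected on the sum of Muc2, Fcgbp and Clca1.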

How the data were processed

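UMI counts per gene and barcode were deposited by the authors as 3 sparse matrices, made with Cell Ranger 3.0.2 on GRCm38 (mm10), for the barcodes called as cells and with no normalization. The libraries held 98518847, 87656078 and 78074516 UMIs in duodenum, jejunum and ileum. The members and gene lists were chosen with earlier results of these data known. Doublets were not called, and 2814 barcodes with a Ptprc UMI were left out of the epithelial classes.

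UMIs were summed per class and library over at least 10 cells and compared with the edgeR 4.0.16 quasi-likelihood test in R 4.3.3 (filterByExpr, TMM, library as a block, Benjamini-Hochberg adjustment over all genes tested, adjusted p under 0.05), with DESeq2 1.42.0 as an alternative. The 9 gate genes, Ptprc and mitochondrial genes stayed in the fit but out of counts and adjustment. Levels are UMIs per 10000 of the summed cells. Intervals and floors (3 counts) cover counting error only. T cells held Ptprc and at least 2 of Cd3d, Cd3e and Cd3g. Python 3.11.15 was used for sums. The fit was tested on simulated counts with 200 genes changed by a log2 of 1. It recovered 37% of them against enterocytes, 29.5% against enteroendocrine cells and 4.5% against tuft cells, with 1, 2 and 0 false calls. A gene that did not pass may thus still differ.

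The 22 lists held 560 genes, of which 557 were in the matrix and 448 were tested. St6galnac2 stood on 2 rows and was left out, and Gm15284 and Pla2g2a had no row. Named genes were the gate genes with Zg16 and Tff3, in each list up to 4 with the largest change past the threshold in the same direction in all libraries and up to 2 with the most UMIs that did not pass, and outside the lists the 10 with the largest change each way (at least 100 UMIs). Every other gene named was chosen after its values were seen, among them Guca2a, Guca2b, Klk1, Itln1, Ang4, Reg4, Muc4, Muc5ac, Ern1, Xbp1, Hspa5, Calr, Syvn1, Sar1a, Sar1b, Mia2, Mia3, Rab27a, Nlrp6, St3gal4, B4galt1, Slc12a2, Slc26a6, Slc9a3, Cftr, H2-Eb1, H2-Ab1, Ciita, Klf4, the Creb3l genes other than Creb3l3, Hnf4a, Hes1, Dll1, Dll4, Krt19 and Slc40a1. Symbols were matched to RefSeq promoter windows of GRCm38.p6.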

Additional observations from a re-analysis of the deposited data

Results flagged for a closer look

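Genes named above were marked where goblet cells lay above enterocytes in some segments and below them in others. Each segment has 1 library, so the difference between segments was not tested. As log2 of the goblet over the enterocyte level in duodenum, jejunum and ileum, Dmbt1 stood at -1.16, -0.69 and 2.17, Pigr at -1.52, -0.87 and 0.84, and Il18 at -1.94, -1.37 and 0.70. The acyltransferase Agpat3 stood at -1.43, -1.41 and 1.30 and the bicarbonate carrier Slc4a7 at -2.20, -0.069 and 1.45. Fos stood at -0.28, 0.57 and 1.11, and Pgm3 at 0.30, -0.66 and 0.49. These 7 of the 8 genes had their highest ratio in the ileum, while Tcf7l2 stood at 0.066, 0.57 and -0.40. The ileal gate held 276 cells with under 100 UMIs of the gate genes per 10000, and without them the ileal goblet level of the 6 genes from Dmbt1 to Fos stayed above the enterocyte level, at 0.199 against 0.0632 UMIs per 10000 for Dmbt1, 4.06 against 2.33 for Pigr, 0.426 against 0.247 for Il18, 0.147 against 0.0672 for Agpat3, 0.398 against 0.138 for Slc4a7 and 15.3 against 6.55 for Fos.

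Barcodes outside the limits also held mucus RNA at goblet cell levels. At 100 or more UMIs of the gate genes per 10000, 30 barcodes with a Ptprc UMI and 24 barcodes above the mitochondrial limit met the rest of the goblet gate, and 28 of the 30 were ileal. They enter no comparison, and whether they are single cells was not tested.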

How the results depend on the processing

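Over 18 alternatives, 152 named genes gave 2699 values against enterocytes. Of these, 2536 were the same, 66 lost the threshold, 78 gained it, 15 moved and 4 reversed. A value was the same where it kept its side of the threshold. A change of direction counted as reversed only where the main fit or the alternative passed. Gate genes, which had no threshold, were the same with an unchanged direction and a log2 shift under 1, and otherwise moved or reversed. Of 101 named genes past the threshold, 69 stayed past it wherever they were tested. Reversed were Dmbt1 without the ileum (-0.87, and 0.76 without the duodenum), Chgb (3.71) and Chga (3.25) with goblet cells gated by Zg16 and Tff3, and Chga with enterocytes at 5% (0.19). Leaving out 1 library gave 1045 to 2194 genes higher than in enterocytes and 1096 to 2516 lower, the lowest without the jejunum. Without the library block, 1320 genes were lower. The library was a block in the main test, and no other paired analysis was possible because each segment has 1 library. Against enteroendocrine cells 1180 genes were higher with DESeq2, and by total UMIs 784 were higher and 3930 lower. Against tuft cells 611 were higher and 636 lower with DESeq2, and 604 and 1783 by total UMIs. The share of goblet cells was 4.97% with the gate at 20 per 10000, 4.46% at 100, 5.21% for cells with under 2% enterocyte genes and 9.40% with at most 20% mitochondrial UMIs, which also shrinks the denominator. The cause of the other changes was not tested. The gates at 100, the limit on other markers and total UMIs were chosen after seeing the data. Few tuft cells limit that comparison.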
